A study of Mus musculus with 6 samples.

Results

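The Bcl2 family genes described here are 10 genes whose proteins decide whether the outer mitochondrial membrane is breached during apoptosis: the effectors Bax and Bak1, the BH3-only genes Bid, Bcl2l11, Bbc3 and Pmaip1, and the anti-apoptotic genes Bcl2, Bcl2l1, Mcl1 and Bcl2a1a. Members were the non-control probes that carry one of these names on the array. They numbered 17 of 41174 probes and covered 9 of the 10 genes, out of 27745 gene names on the array, since no probe carried the name Bcl2a1a. Each probe is described on its own. The samples were the ligated left kidney, behind a completely tied ureter, and the untied contralateral right kidney of 3 CD-1 mice (495, 485 and 512), 1 array per kidney. These animals are outbred and may differ from each other in genotype. No genetic change is labelled, and age, sex and the time between ligation and sampling are not given in the sources used here. Every contralateral kidney came from an animal that had been operated on, and no kidney of an unoperated or sham-operated mouse was analysed here. The labels call the material kidney in one field and primary cells in others, and the sources used here do not settle which was extracted.

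In mitochondrial apoptosis, Bax and Bak1 assemble into pores in the outer mitochondrial membrane, and cytochrome c leaves through them and starts caspase activation. Anti-apoptotic relatives such as Bcl2, Bcl2l1 (Bcl-xL) and Mcl1 hold the effectors and the BH3-only proteins through a surface groove. BH3-only proteins (Bid, Bim, Puma and Noxa, the last 3 encoded by Bcl2l11, Bbc3 and Pmaip1) relay stress signals by filling that groove or by activating the effectors directly. Loss of tubular epithelial cells by apoptosis is a known feature of the obstructed kidney.

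The family shares short homology regions, and some of the array's probes lie in the coding sequence for them. The 5 probes below, each 60 bases long, are shown because they read the coding part of a member. Except for the Bax probe, the only one of its gene, they can be set against probes of the same genes that lie elsewhere in the transcript. Positions are those of the mm8 build named in the file headers. The Bax probe (chr7:45334141-45334296, minus strand) covers 156 genomic bases with its 60, so it crosses an exon junction. So does the Bcl2l11 probe A_51_P484880 (chr2:127838598-127849693, plus strand), which covers 11096 genomic bases. The Bak1 probe A_52_P225207 (chr17:26748876-26748935), the Bcl2 probe A_51_P380013 (chr1:108539940-108539999) and the Bcl2l1 probe A_52_P510877 (chr2:152520890-152520949) lie on the minus strand without a gap. Capitals in the Bak1 and Bcl2 probes mark the stretch of 21 bases, aligned without gaps, in which both are most alike, the most 3' one where several were equal. Of its bases 13 are identical, and it lies in the part that encodes the BH1 region. The Bcl2l11 probe lies over the part that encodes the BH3 region. No capitals are used in the other probes.
Bax A_51_P254541: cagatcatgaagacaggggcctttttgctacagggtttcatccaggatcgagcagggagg
Bak1 A_52_P225207: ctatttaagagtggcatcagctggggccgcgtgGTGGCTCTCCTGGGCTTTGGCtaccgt
Bcl2 A_51_P380013: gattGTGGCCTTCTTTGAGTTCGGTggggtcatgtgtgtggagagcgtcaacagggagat
Bcl2l1 A_52_P510877: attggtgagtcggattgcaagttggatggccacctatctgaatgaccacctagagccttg
Bcl2l11 A_51_P484880: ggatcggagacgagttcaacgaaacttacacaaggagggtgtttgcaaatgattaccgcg

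Signals are given relative to the 75th percentile of the array, so that a value of 1 equals that percentile, and changes are log2 fold changes, ligated minus contralateral, ± SE from a fit with the mouse as a block (n = 3 mice). A probe was called at an adjusted p under 0.05. The 75th percentile of the processed signal lay between 1068 and 1432 on the ligated arrays and between 671 and 1106 on the contralateral ones, and 72.1% to 74.7% of spots were well above background on ligated arrays, against 65.7% to 69.5% on contralateral arrays. The number of arrays limits the precision. The contralateral kidney of mouse 512 stood toward the ligated kidneys in leukocyte and tubule markers, as given with the mouse 512 values below. In RNA of whole samples, fewer cells of a type and less RNA per cell cannot be told apart.

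In the ligated kidney 1 probe of Bcl2l11 rose, and the probe of Bid and 1 of the 3 probes of Bcl2l1 fell. These 3 calls among 17 probes (17.6%) stand beside 30.2% of all 29093 probes tested, of which 15.3% were called higher and 14.9% lower. These shares are counts, and their difference was not tested. The median change was 0.40 over the 17 probes and -0.02 over all probes, and all 17 passed the filter on dim probes. At an unadjusted p under 0.05 stood 11 of the 17, against 49.7% of all probes. Ligated and contralateral values did not overlap for 10 of the 17 (58.8%), against 52.5% of all probes. The difference had the same sign in all 3 mice at 14 of the 17, against 71.6% of all probes. Without mouse 512 the same 3 probes and 7 others were called (10 in all), and without mouse 495 or without mouse 485 limma called 0 of them and 0 of all probes, with 3 and 2 of the 17 at an unadjusted p under 0.05.

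**Figure D1:**
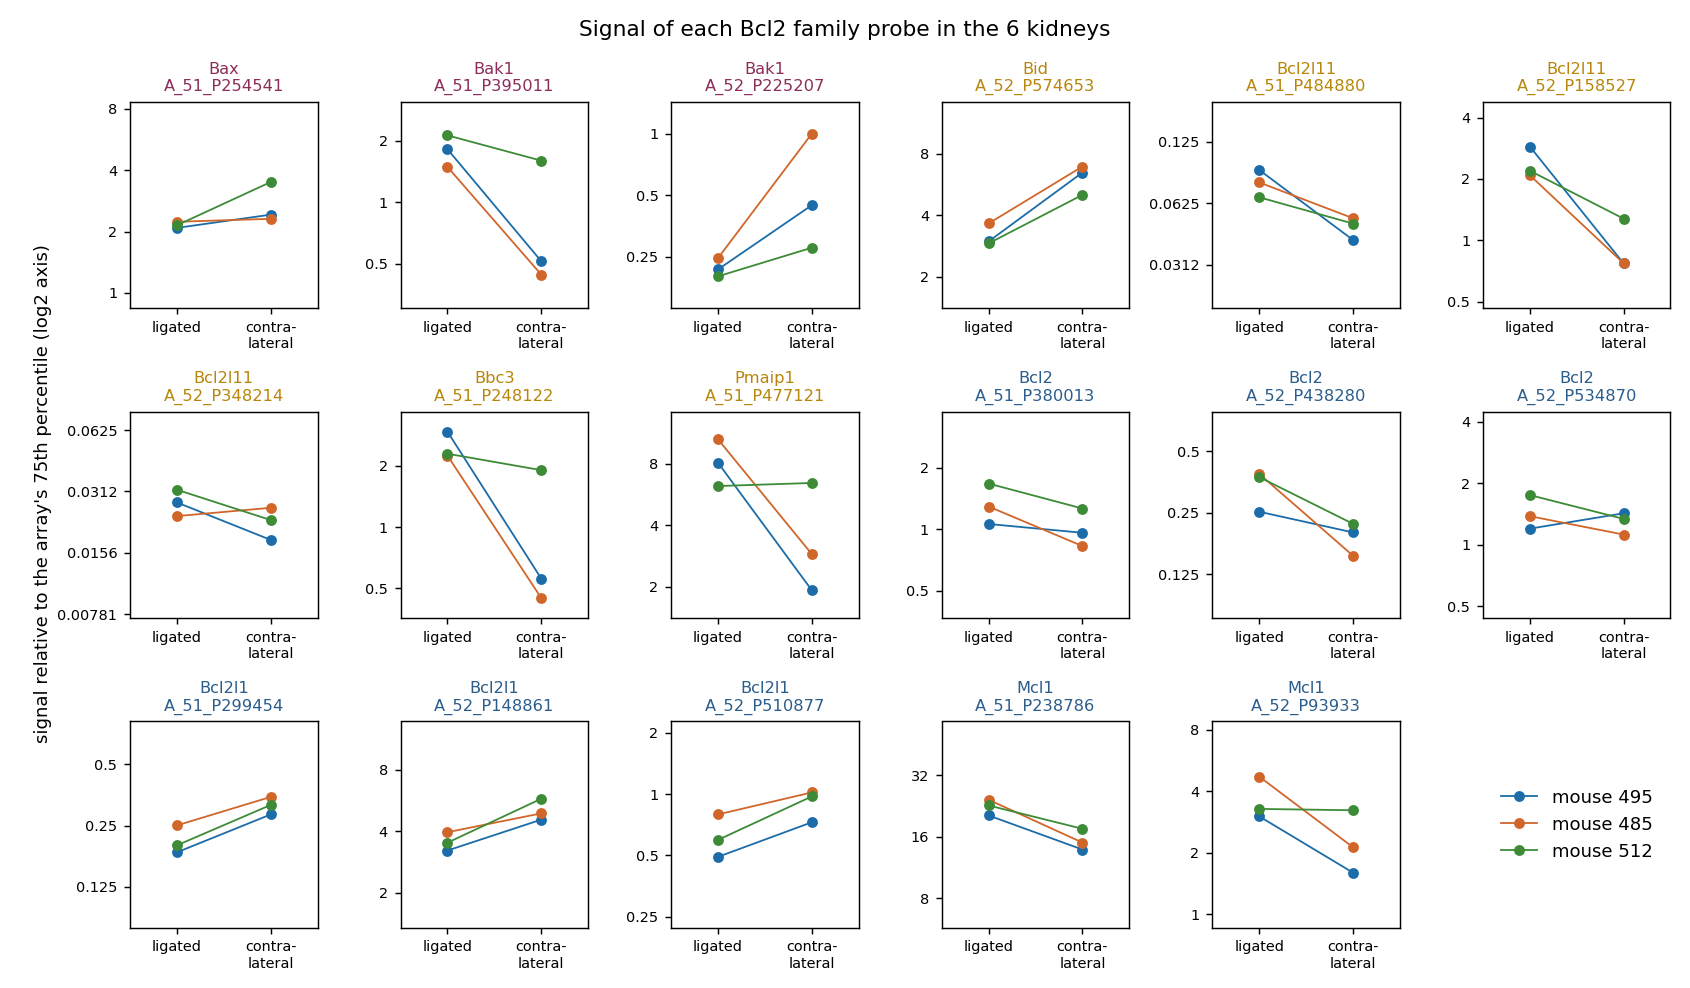
Signal of each of the 17 Bcl2 family probes, relative to the array's 75th percentile on a log2 axis of equal span in every panel, in the ligated (left) and contralateral (right) kidney of each mouse, joined by a line. Title colours mark effectors (purple), BH3-only genes (ochre) and anti-apoptotic genes (blue). The lines of Bid and of the Bcl2l1 probes run alike in the 3 mice, while those of Bbc3, Pmaip1 and 1 Bak1 probe are steep in mice 495 and 485 and flat in mouse 512.

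Among the BH3-only genes, Bcl2l11 encodes Bim, which binds all anti-apoptotic relatives and activates Bax and Bak1. Its probe A_52_P158527 (chr2:127853756-127853815, plus strand), the most 3' of its 3 probes, read 2.88, 2.09 and 2.20 in the ligated kidneys of mice 495, 485 and 512, against 0.772, 0.773 and 1.28 in their contralateral kidneys. All ligated values lay above all contralateral ones. It was 2.59-fold higher (1.37 ± 0.26, adjusted p = 0.0340). The coding probe printed above, A_51_P484880, read 0.0911, 0.0791 and 0.0669 in ligated kidneys, against 0.0413, 0.0528 and 0.0497 in contralateral kidneys. These groups did not overlap either, but the change of 0.72 ± 0.20 did not pass (adjusted p = 0.0615). The size of this change turned on the processing, at 0.07 with normexp background correction and 0.37 with quantile normalization. Of 14 alternatives that held this probe, 4 called it. The third probe, A_52_P348214 (chr2:127820441-127821122), lies 33315 bases upstream of the called one and read only 0.0276, 0.0237 and 0.0319 in ligated kidneys, against 0.0181, 0.0260 and 0.0226 in contralateral kidneys. It was not well above background on 1 contralateral array, its groups overlapped, and its change was 0.32 ± 0.21 (adjusted p = 0.275). The change at A_52_P158527 exceeded that at A_52_P348214 by 1.29, 1.57 and 0.29 in the 3 mice, a mean of 1.05 ± 0.68 (SD, n = 3), for which an exact two-sided sign permutation gave p = 0.25, the smallest it can give with 3 mice.

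Bid, which caspase 8 cleaves to carry a death receptor signal to the mitochondrion, had 1 probe (chr6:120859065-120859124, minus strand). It read 2.98, 3.64 and 2.91 in ligated kidneys, against 6.47, 6.92 and 5.03 in contralateral kidneys. Every ligated kidney lay below every contralateral one, and the differences within mice were close to each other at -1.12, -0.93 and -0.79. Bid fell 1.93-fold (-0.95 ± 0.15, adjusted p = 0.0285). On the scale of the spike-in spots its change was -0.66 and not called (adjusted p = 0.316).

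Bbc3 encodes Puma, a BH3-only protein whose gene is a direct p53 target. Its probe (chr7:15476576-15476635, plus strand) read 2.93, 2.24 and 2.29 in ligated kidneys, against 0.559, 0.449 and 1.90 in contralateral kidneys. The ligated kidneys were alike, and the contralateral kidney of mouse 512 stood more than 3 times above the other contralateral kidneys. The change was the most positive of the 17 probes but did not pass (1.66 ± 0.50, adjusted p = 0.0710). Without mouse 512 it was 2.35 and called (adjusted p = 0.00311), and a fit with slide as the block called it as well (adjusted p = 0.0426).

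Pmaip1 encodes Noxa, which binds chiefly Mcl1 and A1. Its probe (chr18:66590803-66590862, plus strand) read 8.09, 10.54 and 6.23 in ligated kidneys, against 1.92, 2.89 and 6.45 in contralateral kidneys. Both kidneys of mouse 512 were thus nearly level, while the other mice differed by 2.07 and 1.87. The change of 1.30 ± 0.49 did not pass (adjusted p = 0.108). Without mouse 512 it was 1.97 (adjusted p = 0.00356).

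**Figure D2:**
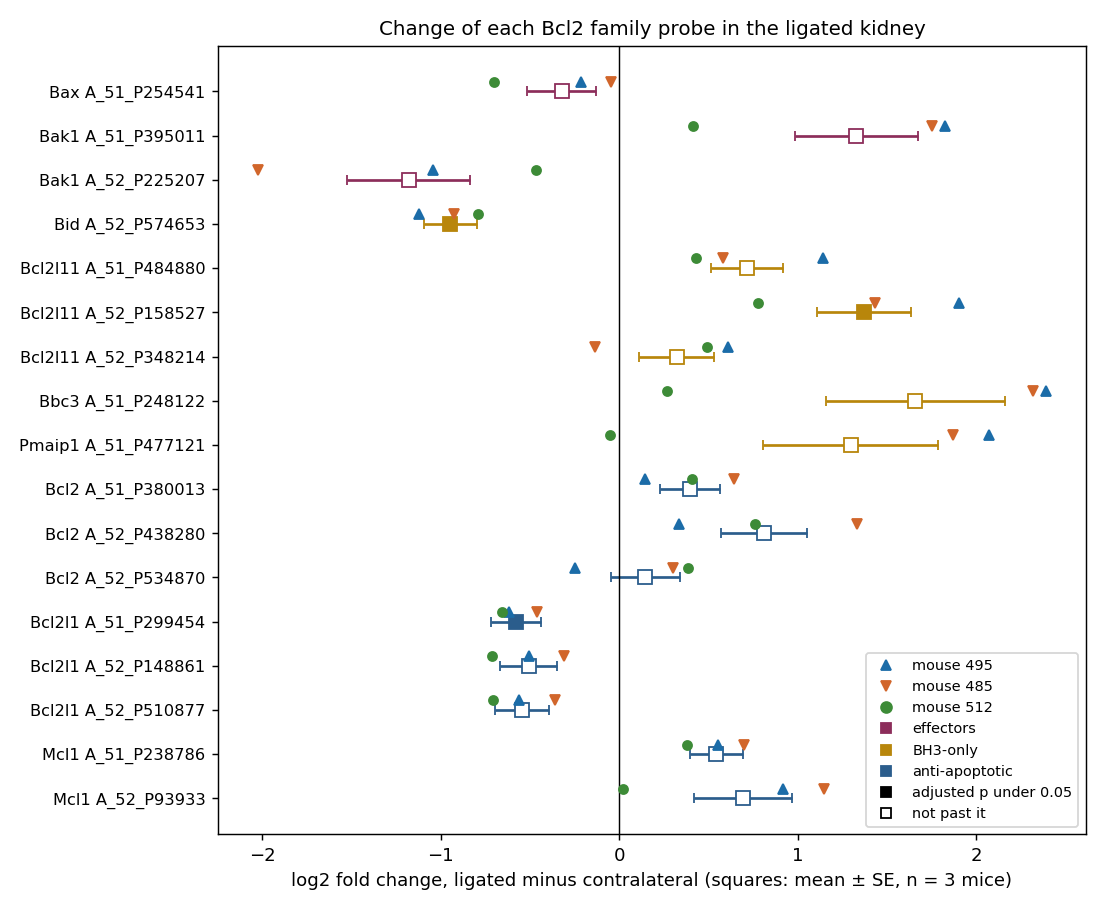
Log2 fold change of each Bcl2 family probe, ligated minus contralateral; squares with bars are the fitted mean ± SE (n = 3 mice), filled where the adjusted p is under 0.05, and small symbols are the differences within each mouse. Filled squares stand at -0.95 (Bid), 1.37 (Bcl2l11) and -0.58 (Bcl2l1), and the probes of Bak1 lie on opposite sides of 0.

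Neither effector passed the test at any probe. Bax was measured by 1 probe on 10 spots per array and read 2.08, 2.23 and 2.14 in ligated kidneys, against 2.42, 2.31 and 3.49 in contralateral kidneys. The groups did not overlap, but the gap was small in mice 495 and 485 (-0.22 and -0.05) and larger in mouse 512 (-0.70). The change was -0.32 ± 0.19 (adjusted p = 0.240). The SD of log2 signal over the 10 spots was between 0.03 and 0.04 on the 6 arrays.

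The probes of Bak1, the other pore-forming effector, differed in opposite directions, and neither passed. The probe A_51_P395011 (chr17:26747611-26747670, minus strand), 1265 bases further 3' than the coding probe, read 1.82, 1.49 and 2.12 in ligated kidneys, against 0.514, 0.442 and 1.60 in contralateral kidneys. The contralateral kidney of mouse 512 stood above the ligated kidney of mouse 485, so the groups overlapped, and the change of 1.33 ± 0.35 just missed the threshold (adjusted p = 0.0539). The coding probe A_52_P225207, printed above, read 0.216, 0.246 and 0.200 in ligated kidneys, against 0.446, 1.00 and 0.276 in contralateral kidneys. Here every ligated kidney was the lower one, at a change of -1.18 ± 0.34 (adjusted p = 0.0660). The change at the 3' probe exceeded that at the coding probe by 2.87, 3.78 and 0.88 in the 3 mice (mean 2.51 ± 1.48, SD, n = 3), and the exact two-sided sign permutation gave p = 0.25, the smallest it can give. Without mouse 512 both probes were called, at 1.79 (adjusted p = 0.00370) and -1.53 (adjusted p = 0.0197). Which of these probes reads the Bak1 transcript level was not tested, so no direction is given for the gene.

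Of the anti-apoptotic genes, Bcl2l1 was lower at each of its 3 probes and Mcl1 higher at both of its probes, with 1 of these 5 probes called. Bcl2l1 encodes Bcl-xL, which restrains Bax and Bak1. Its probe A_51_P299454 (chr2:152521435-152521494, minus strand) read 0.185, 0.2503 and 0.200 in ligated kidneys, against 0.283, 0.345 and 0.315 in contralateral kidneys. It fell 1.49-fold (-0.58 ± 0.14, adjusted p = 0.0474). The coding probe A_52_P510877 lies 545 bases from it and read 0.492, 0.794 and 0.596 in ligated kidneys, against 0.727, 1.02 and 0.973 in contralateral kidneys (-0.54 ± 0.15, adjusted p = 0.0606). The third probe, A_52_P148861 (chr2:152472336-152472395), lies a further 48554 bases downstream, is spotted 10 times per array and read 3.22, 3.96 and 3.52 in ligated kidneys, against 4.57, 4.90 and 5.78 in contralateral kidneys (-0.51 ± 0.16, adjusted p = 0.0738). The differences of the 3 probes were nearly the same size, with mean gaps between them of at most 0.07 on the log2 scale. Relative to the 75th percentile, Bcl2l1 was lower in the ligated kidney of all 3 mice at each of them. This did not hold on the spike-in scale, where the ligated kidney of mouse 485 was the higher one at each probe. Fitted changes on that scale were -0.30 ± 0.42 (A_51_P299454), -0.26 ± 0.43 (A_52_P510877) and -0.23 ± 0.44 (A_52_P148861). The call at A_51_P299454 was lost without the mouse block (adjusted p = 0.0581) and on the spike-in scale, where its change was -0.30 (adjusted p = 0.698). It was also lost with slide as the block (adjusted p = 0.0594) and with no filter on dim probes (adjusted p = 0.0953). Of 14 alternatives that held this probe, 7 called it.

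Mcl1 encodes a short-lived guardian that binds Bak1 and Bim. Its probe A_51_P238786 (chr3:95748337-95748396, plus strand) read 20.3, 24.3 and 22.8 in ligated kidneys, against 13.8, 15.0 and 17.5 in contralateral kidneys. The groups did not overlap, and the change of 0.54 ± 0.15 did not pass (adjusted p = 0.0582). The second probe, A_52_P93933 (chr3:95747025-95747084), 1312 bases further 5', read 3.02, 4.72 and 3.28 in ligated kidneys, against 1.60, 2.13 and 3.23 in contralateral kidneys. Both kidneys of mouse 512 were level here, and the change was 0.70 ± 0.27 (adjusted p = 0.117). Without mouse 512 both Mcl1 probes were called.

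Bcl2, the founding member of the family, was measured by 3 probes, of which none was called. The coding probe A_51_P380013 read 1.06, 1.29 and 1.67 in ligated kidneys, against 0.961, 0.827 and 1.26 in contralateral kidneys (0.40 ± 0.17, adjusted p = 0.133). A_52_P438280 (chr1:108538280-108538339, minus strand), which the file ties to a cDNA clone, read 0.253, 0.387 and 0.373 in ligated kidneys, against 0.200, 0.154 and 0.220 in contralateral kidneys. Its groups did not overlap (0.81 ± 0.24, adjusted p = 0.0686). A_52_P534870 (chr1:108365763-108365822), 174177 bases downstream of the coding probe and annotated to transcript variant 1, read 1.199, 1.38 and 1.75 in ligated kidneys, against 1.43, 1.12 and 1.34 in contralateral kidneys. It was lower in the ligated kidney of mouse 495 and higher in those of the other mice, for a change of 0.15 ± 0.19 (adjusted p = 0.569). The change at A_52_P438280 exceeded that at A_52_P534870 by 0.59, 1.03 and 0.37 in the 3 mice, with p = 0.25 in the exact two-sided sign permutation.

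The balance of Bax against Bcl2 is often used as a sign of readiness for apoptosis, so the changes of both genes were set against each other at the probe with the higher mean. The change of Bax minus that of Bcl2 (A_52_P534870) came to 0.03, -0.35 and -1.09 in mice 495, 485 and 512. The mean was -0.47 ± 0.57 (SD, n = 3), and an exact two-sided sign permutation over the 3 mice gave p = 0.50. At that probe the difference was no larger than its spread between mice. Against the other Bcl2 probes, a comparison added after the data were seen, the difference was below 0 in all 3 mice and larger than its spread. It was -0.36, -0.69 and -1.11 against A_51_P380013 (mean -0.72 ± 0.38, SD, n = 3). It was -0.55, -1.38 and -1.46 against A_52_P438280 (mean -1.13 ± 0.50, SD, n = 3). The exact permutation gave p = 0.25 for each, the smallest that 3 mice allow.

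At several members the contralateral kidney of mouse 512 stood apart from the other contralateral kidneys. Values here are log2 differences from the mean of the contralateral kidneys of mice 495 and 485. The ligated kidney of mouse 512 stood at 2.19 for Bbc3, 1.40 for Pmaip1, 2.16 for Bak1 A_51_P395011 and 1.51 for Bcl2l11 A_52_P158527, and the other ligated kidneys at a mean of 2.35, 1.97, 1.79 and 1.67 for the same probes. The contralateral kidney of mouse 512 stood at 1.92, 1.45, 1.74 and 0.73, close to the ligated kidneys for the first 3. For Bid the ligated kidney of mouse 512 stood at -1.20 and the ligated kidneys of mice 495 and 485 at a mean of -1.02, against -0.41 for the contralateral kidney of mouse 512. The contralateral kidney of mouse 512 lay above both other contralateral kidneys at 10 of the 17 probes (58.8%), against 39.5% of all probes, and below both at 2 of them, against 43.5%. Mouse 512 had the smallest difference of the 3 mice, by size, at 9 of the 17 probes, against 62% of all probes. Tubule markers moved with it: over 12 such genes the median in that kidney was -1.86 against the other contralateral kidneys, and over 17 leukocyte markers it was 1.72. Over 12 fibroblast, endothelial and podocyte markers it was 0.20. The part of these cell types in the values of the family was not tested. The arrays of mice 495 and 485 shared slide 1, and slide 2 carried mouse 512 alone, so for that mouse slide and animal cannot be told apart.

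**Figure D3:**
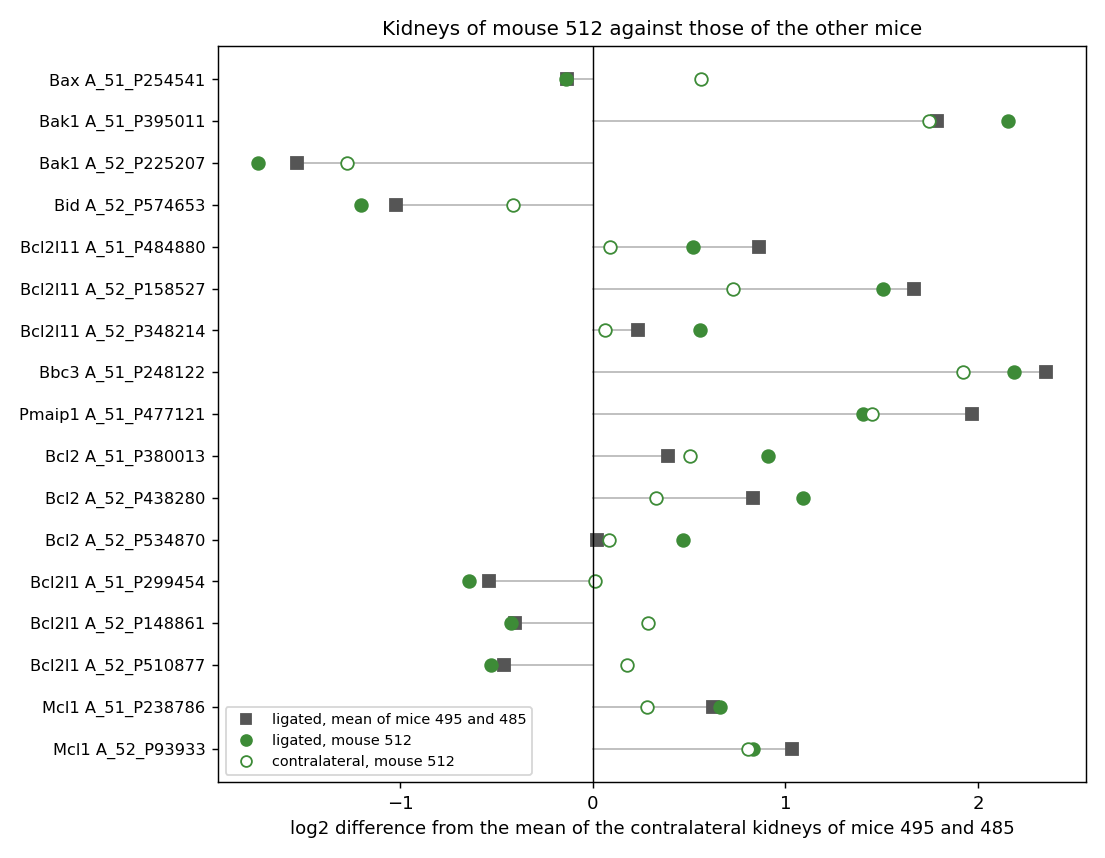
Log2 difference of each Bcl2 family probe from the mean of the contralateral kidneys of mice 495 and 485, for the ligated kidneys of these mice (grey squares, mean), the ligated kidney of mouse 512 (filled circles) and its contralateral kidney (open circles). The open circles of Bbc3, Pmaip1 and Bak1 A_51_P395011 lie between 1.45 and 1.92, near the ligated kidneys, while those of the Bcl2l1 probes lie between 0.01 and 0.29.

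Genes around the family were counted with 1 probe per gene, the one with the highest mean. Of 19598 genes so counted, 16.3% were called higher and 15.2% lower, at a median of -0.01. Of 12 other Bcl2 family genes tested, 5 rose and 1 fell, at a median of 0.49. With probes required above background on all 6 arrays, 4 rose and 2 fell, at a median of 0.27. Hrk and Bcl2l10 were too dim to be tested, and no probe carried the names Bcl2l15 and Bcl2a1d. Bcl2a1b, a near-identical copy of the missing member Bcl2a1a that encodes an A1 protein of leukocytes, read 4.66, 4.28 and 6.42 in ligated kidneys, against 0.239, 0.166 and 1.43 in contralateral kidneys. It rose 13.1-fold (3.72 ± 0.56, adjusted p = 0.0275), and its relative Bcl2a1c rose at least 12.4-fold. The A1 genes share most of their sequence, and these probes cannot separate the copies with certainty. Bmf, a BH3-only gene tied to the cytoskeleton, rose 8.43-fold (3.08 ± 0.39), reading 2.62, 2.26 and 2.25 in ligated kidneys, against 0.287, 0.150 and 0.515 in contralateral kidneys. Bok, a relative of Bax and Bak1 picked out after its value was seen, rose 3.40-fold (1.77 ± 0.15). Bnip3, a hypoxia-induced mitophagy gene picked out in the same way as the 1 member that fell, was 2.70-fold lower (-1.43 ± 0.22).

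Downstream of the family, 3 of 9 caspase genes rose and 0 fell, at a median of 0.59. They were Casp12 (10.01-fold, 3.32 ± 0.37), Casp4 (8.01-fold, 3.00 ± 0.40) and Casp1 (5.25-fold, 2.39 ± 0.18). All 3 belong to the inflammatory group of caspases, which process interleukin-1 or open gasdermin pores; Casp12 belongs to it by sequence. Without mouse 512 the caspases that rose numbered 6.

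Of 13 apoptosome and inhibitor of apoptosis genes, 2 rose and 3 fell, at a median of 0.32. Birc3, a ubiquitin ligase of TNF receptor signalling, rose 5.24-fold (2.39 ± 0.57, adjusted p = 0.0468). Cytochrome c (Cycs) fell 3.29-fold (-1.72 ± 0.26) and the mitochondrial nuclease gene Endog fell 2.82-fold (-1.50 ± 0.33). Of 14 death receptor genes, 4 rose and 0 fell, at a median of 0.57. With probes required above background on all 6 arrays, 3 rose, at a median of 0.35. The 4 included Tnf (at least 7.20-fold), the TNF receptor gene Tnfrsf1b (6.62-fold) and the Fas ligand gene Fasl, at least 2.80-fold, whose probe was not well above background on 3 arrays. Of 16 genes of p53 and its targets, 2 rose and 3 fell, at a median of 0.16. This split turned on the scaling, with 3 higher and 1 lower after quantile normalization, 1 higher and 5 lower when arrays were centred on their median (at a list median of -0.14), and 1 higher and 0 lower when spike-in spots set the scale. Ccng1 fell 2.24-fold (-1.16 ± 0.16), the sestrin gene Sesn1 rose 2.09-fold (1.06 ± 0.16) and Phlda3 rose 1.96-fold (0.97 ± 0.22). Without mouse 512 the members that rose and fell numbered 6 and 3 for the other Bcl2 family genes, 6 and 5 for the apoptosome list, 8 and 0 for death receptors and 7 and 5 for the p53 list. In each of these lists 0 members were called in limma without mouse 495 or without mouse 485, as for all probes.

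Markers of other cell types were counted in the same way. Of 17 leukocyte markers, 15 rose and 0 fell, at a median of 2.61, and their summed relative signal was between 117 and 136 in ligated kidneys, against 14.4 to 74.0 in contralateral kidneys. Adgre1, a macrophage surface receptor, rose 10.7-fold, Ly86 8.996-fold and Cd3g, a chain of the T cell receptor complex, 8.51-fold. Of 12 kidney tubule markers, 8 fell and 0 rose, at a median of -2.11, with a summed relative signal of 447 to 496 in ligated kidneys, against 589 to 1547 in contralateral kidneys. Slc22a8 (17.1-fold), Slc22a6 (12.1-fold) and the water channel gene Aqp2 (7.35-fold) were the largest of these falls. Of 12 fibroblast, endothelial and podocyte markers, 7 rose and 0 fell, at a median of 1.13, led by Col1a1 (14.5-fold), Thy1 (10.6-fold) and Pdgfra (7.12-fold). All markers on these 3 lists passed the filter on dim probes, those of the kidney tubule included. The part of changed cell numbers in any value of the family was not tested.

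**Figure D4:**
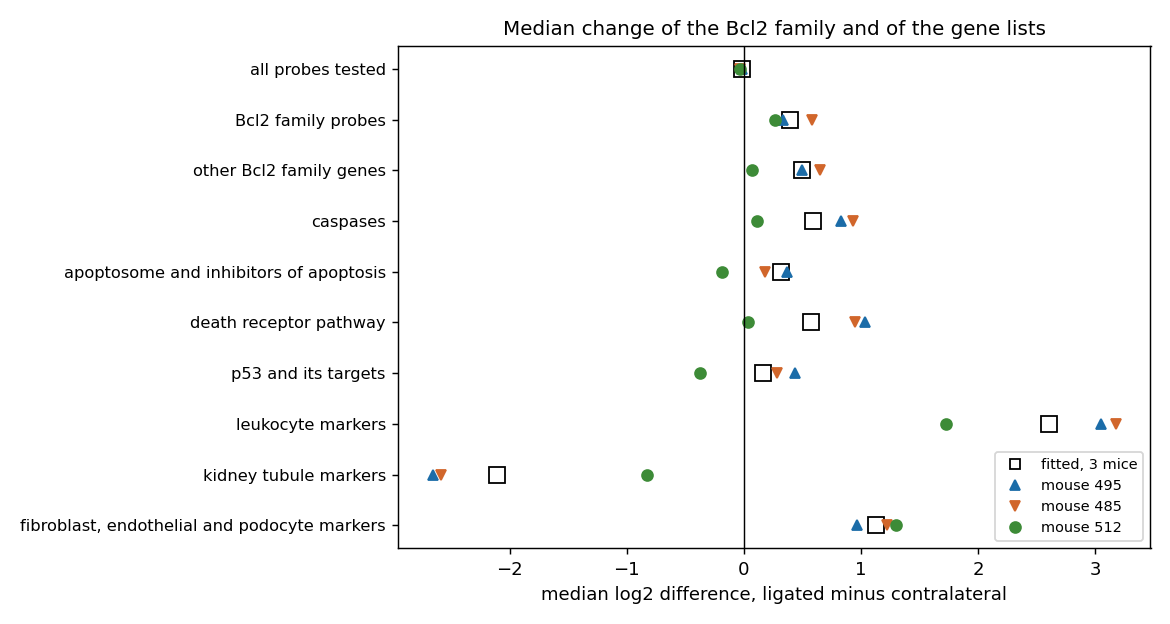
Median log2 difference, ligated minus contralateral, over all 29093 probes tested, the 17 Bcl2 family probes and the genes of each list, as fitted over the 3 mice (open squares) and within each mouse (small symbols). The family median of 0.40 (over probes; 0.54 with 1 row per gene) lies among those of the apoptosome (0.32), other Bcl2 family (0.49), death receptor (0.57) and caspase (0.59) lists, and leukocyte and tubule markers lie at 2.61 and -2.11.

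The probes most like the called ones were sought by the root mean square distance of their differences within the 3 mice. Nearest to Bcl2l11 A_52_P158527 (1.90, 1.43 and 0.78 in mice 495, 485 and 512) were Rab8b at a distance of 0.07, Sobp at 0.08 and Tifab at 0.10 on the log2 scale. Nearest to Bid were Timm29, Retreg2 and Erc2, each at 0.03. All 6 were called, which follows from the choice, since the test uses the same differences within mice.

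As Bcl2l11 and Bid were called in opposite directions, the 250 bases before their start sites are shown, from RefSeq on GRCm38.p6. That of Bcl2l11 (chr2:128125788-128126037, plus strand) is the more upstream of its 2 start sites in the table. That of Bid lies at chr6:120916825-120917074 on the minus strand. Both are shown on the strand of the gene. Capitals mark GTAAACA, a letter string bound by forkhead factors, in Bcl2l11 and GGGCGG, the GC box, in Bid.
Bcl2l11: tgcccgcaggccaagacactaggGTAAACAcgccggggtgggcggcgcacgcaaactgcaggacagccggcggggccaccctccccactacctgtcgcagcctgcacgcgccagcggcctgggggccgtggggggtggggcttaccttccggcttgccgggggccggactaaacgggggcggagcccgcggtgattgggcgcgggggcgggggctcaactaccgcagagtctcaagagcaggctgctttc
Bid: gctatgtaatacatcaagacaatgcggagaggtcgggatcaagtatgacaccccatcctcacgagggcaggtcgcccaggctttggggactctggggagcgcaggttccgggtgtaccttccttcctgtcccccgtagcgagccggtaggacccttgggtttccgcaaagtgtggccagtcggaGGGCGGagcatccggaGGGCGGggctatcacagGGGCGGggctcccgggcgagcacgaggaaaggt

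With both strands searched, the Bcl2l11 stretch held GTAAACA 1 time, and 3.17% of 32851 such stretches hold it. The stretch before the other Bcl2l11 start site (chr2:128127325-128127574) held it 0 times, and 1 of the 3 Bbc3 stretches held it 1 time. Pmaip1 was left out of the members whose stretches were searched. The Bid stretch held it 0 times and held GGGCGG 3 times, and the Bcl2l11 stretch held GGGCGG 3 times as well, with no base shared with the forkhead match, against 32.7% of all stretches with at least 1. CpG dinucleotides numbered 24 in Bcl2l11 and 18 in Bid, against a median of 6.0 over all stretches. These matches describe the letters and are no evidence of binding.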

How the data were processed

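The authors deposited 1 scanner table per array, of total RNA labelled with Cy3 as cRNA. The processed signal is a linear intensity, background-subtracted and detrended within the array by Agilent Feature Extraction, per the file headers (version 10.5.1.1; the submitters' processing notes name version 9.1), with no scaling between arrays. Spot flags are 0 or 1 in the deposited tables. The deposited value table holds a ratio of the processed signal to the median of its array.

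Control spots and spots flagged as outliers were left out; 0 spots were saturated. Log2 signals were centred on the 75th percentile of the array, and spots of a probe were averaged. The 29093 probes that stood well above background on every array of the ligated or of the contralateral group entered limma 3.58.1 (R 4.3.3). Mouse was a fixed block, tests were two-sided, and p-values were adjusted by Benjamini-Hochberg over all probes entered. The mouse numbers in the labels pair the kidneys; deviations from group means correlated within mice (r = 0.202, 0.474 and 0.279). The fit was tested on simulated data. Where a probe was below background on an array of the dimmer group, the fold given is only a bound ("at least"). Symbols were updated through RefSeq accessions (24375 of 41174 probes).

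Every member probe was named, and from each list the 3 called genes with the largest change. The members and lists were chosen with earlier results of these data known. Alternatives covered background, scaling, filter, block, variance trend, 1 row per gene, and each mouse left out.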

Additional observations from a re-analysis of the deposited data

How the results depend on the processing

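All member probes kept their sign under every alternative run except Bcl2l11 A_52_P348214 in 2 of them and Bcl2 A_52_P534870 in 1. The 3 called member probes became 7 with quantile normalization, 6 with centring on the median, 1 on the spike-in scale, 5 with the filter on all 6 arrays, 7 with slide as the block, 6 with an intensity trend, 10 without the contralateral kidney of mouse 512 in an unpaired fit, and 0 with no filter (limma; 11 at an unadjusted p under 0.05). Over all probes the 8780 calls became 4564 on the spike-in scale, 4152 with no filter and 15940 without that contralateral kidney. Higher and lower calls in the family, 1 and 2, were 3 and 4 with quantile normalization, 1 and 5 with median centring, 1 and 0 by spike-in spots, 3 and 2 with the filter on all 6 arrays, 6 and 1 with slide as the block, 3 and 3 with the trend, 7 and 3 without mouse 512 and 8 and 2 without its contralateral kidney. For the other Bcl2 family genes, 5 and 1 became 4 and 4 with median centring, and 4 and 0 by spike-in spots; for the apoptosome list, 2 and 3 became 2 and 5, and 2 and 1. With each mouse left out in turn the counts were 0 to 10 for the family and 0 to 15878 for all probes. Without the replicate block 3 member probes and 7657 of all probes were called; Bcl2l1 A_51_P299454 was lost and Bcl2l11 A_51_P484880 gained. The median of all probes, -0.02, was -0.33 with centring on the median, 0.26 on the spike-in scale, -0.20 with normexp, -0.20 with no filter and -0.12 with the filter on all 6 arrays, and changes are relative to it. Higher and lower calls, 4444 and 4336, were 3632 and 9013 with median centring, 3493 and 1071 by spike-in spots and 2578 and 4132 with normexp. The change of Bax minus that of Bcl2 stayed within 1 SD of its value under the other settings in which it was computed. It was -1.13 with Bcl2 A_52_P438280, a choice made after seeing the data. It was not computed for the fits without the replicate block and with slide as the block. Without the contralateral kidney of mouse 512 it rested on the other mice. The causes of these differences were not tested.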
